A study of Homo sapiens with 9 samples.

Results

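Among 17687 genes named on the array, 10 were taken by symbol. These genes write, maintain, read or remove DNA methylation, keep retroelements silent or, in the case of ADAR, edit double-stranded RNA. They are DNMT1, DNMT3A, DNMT3B, UHRF1, TET1, TET2, TET3, SETDB1, TRIM28 and ADAR, and all 10 were found, each with 1 transcript cluster (the unit of the array, a group of probes summed to 1 value per gene). With 9 Clariom S arrays, which measure transcripts, the study profiled the established human cell line ACC-MESO-1, grown from a malignant pleural mesothelioma (a cancer of the membrane around the lung). The cells were infected with a control shRNA (arrays numbered 1 to 3), with shLSD1 #1 (4 to 6) or with shLSD1 #2 (7 to 9), the latter being short hairpins aimed at the histone demethylase LSD1, and all groups share the line, the culture medium and 100 ng of labelled total RNA. The labels name neither the time after infection nor separate cultures, so p-values measure the spread between arrays, which may be technical. The transcript of LSD1 was not analysed here.

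DNA methylation is laid down by DNMT3A and DNMT3B, copied to new strands after replication by DNMT1 with the help of UHRF1, and removed stepwise after oxidation by the TET enzymes. Many endogenous retroviruses are silenced by TRIM28, which is brought to them by KRAB zinc finger proteins and recruits the histone methyltransferase SETDB1. When such repeats are transcribed, their double-stranded RNA can be sensed by RIGI, IFIH1 and TLR3 and can start an interferon response, and ADAR, an RNA-editing enzyme that is itself interferon-inducible in its long form, changes adenosines in double-stranded RNA so that IFIH1 senses it less. The series asks about LSD1 and the mesenchymal character of these cells. The genes are described here because the interferon-stimulated genes fell with both hairpins.

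All values are log2 signals, and a cluster counts as above the negative controls where its signal is higher than the 95th percentile of that array's 612 negative control probe sets, a value between 6.93 and 7.54. Array medians were 6.39 to 6.43. The keratins KRT8 and KRT18 and mesothelin (MSLN), markers of mesothelial cells, were above the negative controls on all 9 arrays, whereas CALB2, KRT5 and THBD, also on that list of 10 markers, were below them on all 9. None of the 4 leukocyte, 3 endothelial and 4 lung epithelial markers measured exceeded the negative controls on any array. The hybridization controls, bacterial and phage transcripts added at hybridization, had a mean signal of 11.2 to 11.4 on the control arrays and on shLSD1 #2 replicates 7 and 9, and of 10.8 to 10.9 on shLSD1 #2 replicate 8 and all 3 arrays of shLSD1 #1. This class runs with the hairpins in part, and values with it as a block are given for each of the 10 genes. No control array is in the low class and no shLSD1 #1 array in the high class, so the block is estimated from the shLSD1 #2 arrays alone, and class and shLSD1 #1 cannot otherwise be told apart. Among these, only replicate 8 is in the low class, so the block rests on that 1 array for both hairpins. For shLSD1 #2 the fit with the block gave the same values as leaving replicate 8 out, and the 2 are not separate checks.

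By limma, 4 of the 10 genes passed the adjusted threshold of 0.05 with shLSD1 #1, where 15.8% of all 21448 clusters passed. UHRF1, TRIM28 and DNMT1 were higher (7.85% of all clusters were called higher) and ADAR was lower (7.94% lower). With shLSD1 #2, 3 of 10 passed against 13.2% of all clusters, UHRF1 and TRIM28 being higher (6.56%) and ADAR lower (6.63%). The same 3 genes thus passed with both hairpins, as did 10.4% of all clusters. Both comparisons use the same 3 control arrays. The median log2 change of the 10 genes was 0.070 and 0.054, against 0.030 and 0.022 over all clusters. The middle values behind these medians were those of DNMT3A and TET3 with shLSD1 #1 and of DNMT3A and DNMT3B with shLSD1 #2. These genes were below the negative controls on every array, so the medians say little of the genes that were measured. The 10 genes were chosen with earlier results of these data known, so these counts are a description. With the hybridization class as a block, none of the 10 passed in limma for either hairpin. Of all 21448 clusters, 399 and 1940 passed, so 0 of 10 is near the share of all clusters. Of the 10 genes, 5 and 4 had an unadjusted p under 0.05, beside 3215 and 4803 of all clusters.

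**Figure D1:**
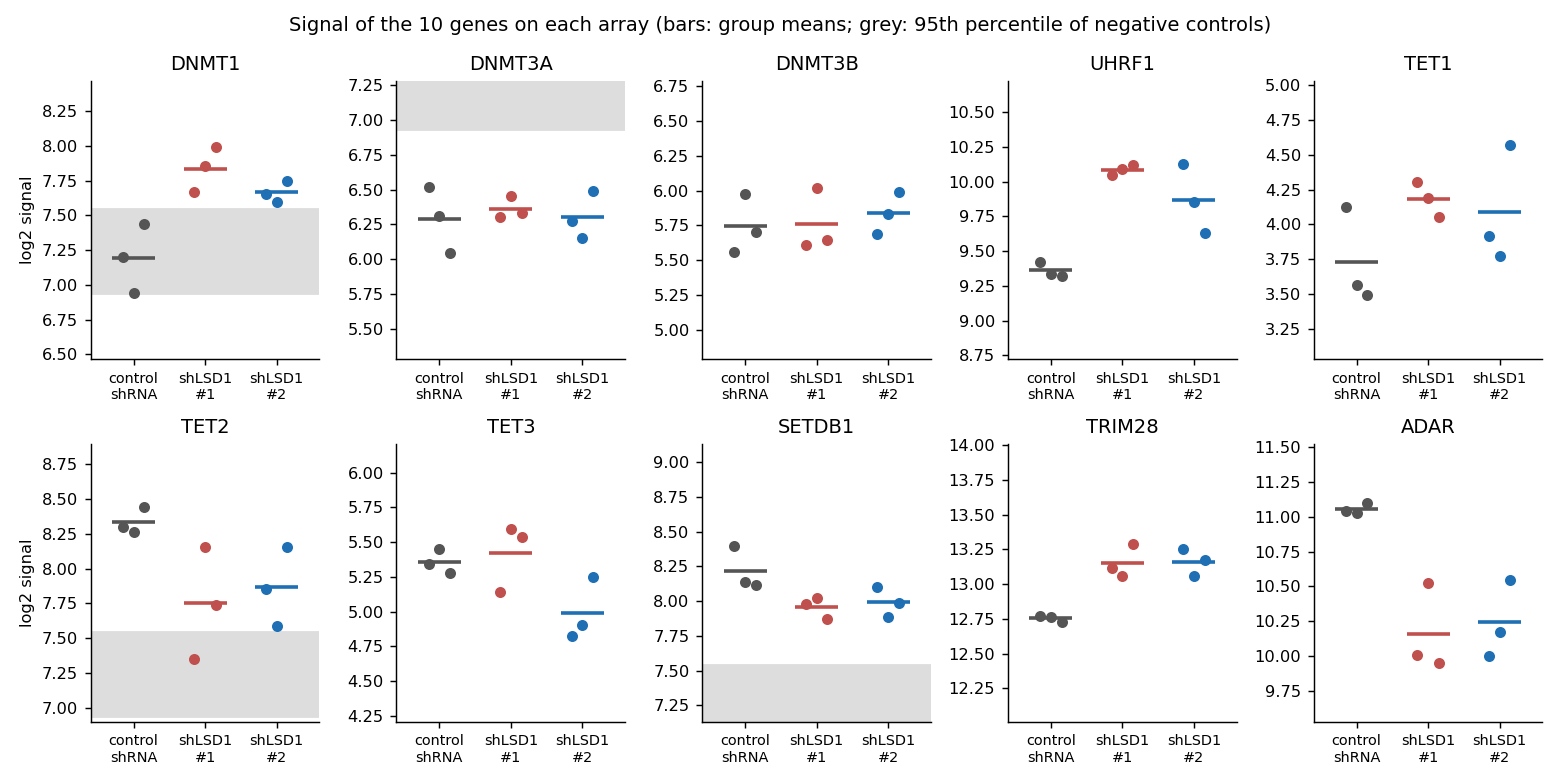
Log2 signal of each of the 10 genes on each of the 9 arrays, with 3 points and a bar at the mean for each group; each panel spans 2 log2 units and the grey band marks the range of the negative control percentiles. ADAR lay between 11.03 and 11.10 on the control arrays and at or below 10.55 on every hairpin array, while DNMT3A, DNMT3B, TET1 and TET3 lay under the negative controls throughout.

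Of the maintenance genes, UHRF1 passed with both hairpins and DNMT1 with shLSD1 #1, and neither passed with the block. UHRF1, which binds hemimethylated DNA and brings DNMT1 to it, had signals of 9.43, 9.34 and 9.32 on the control arrays. It had 10.05, 10.09 and 10.12 with shLSD1 #1 and 10.12, 9.86 and 9.63 with shLSD1 #2. All 6 hairpin arrays lay above all 3 control arrays, and shLSD1 #2 replicate 9 was nearest to them. UHRF1 rose by 0.72 ± 0.13 with shLSD1 #1, or 1.65-fold (SE, n = 3, limma adjusted p = 0.0058), and by 0.51 ± 0.13 with shLSD1 #2, or 1.42-fold (adjusted p = 0.0351). The changes were higher than those of 95.8% and 91.9% of clusters. With the hybridization class as a block the changes were 0.75 ± 0.25 and 0.52 ± 0.16 and neither passed (adjusted p = 0.211 and 0.0855). The call for shLSD1 #2 also ended when control replicate 1, 2 or 3, shLSD1 #1 replicate 4 or 6, or shLSD1 #2 replicate 7 was left out (adjusted p from 0.0501 to 0.109), or when only the groups compared were fitted (0.0727). Leaving out an array of shLSD1 #1 did not alter the shLSD1 #2 change itself, only its SE and adjusted p. Leaving out shLSD1 #2 replicate 8 gave the same shLSD1 #2 values as the block.

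DNMT1, the enzyme that copies methylation at replication, was dim. Its signals were 7.20, 6.94 and 7.44 on the control arrays, all 3 below the negative controls of their arrays. They were 7.67, 7.85 and 7.99 with shLSD1 #1 and 7.65, 7.60 and 7.75 with shLSD1 #2, all 6 above. Since the control level has only an upper limit, DNMT1 was at least 1.35-fold higher with shLSD1 #1 (limma adjusted p = 0.0171) and at least 1.20-fold higher with shLSD1 #2, where it missed the threshold (adjusted p = 0.0695). For these bounds each control array was given its negative control percentile in place of its own signal. Leaving out control replicate 2 (adjusted p = 0.0606) or shLSD1 #1 replicate 6 (0.0620), or adding the block (0.253), ended the call for shLSD1 #1. With the block the fitted change was 0.75 ± 0.28 and 0.51 ± 0.17 (limma adjusted p = 0.253 and 0.121). These fitted values depend on control signals below the negative controls. With shLSD1 #2, DNMT1 passed with the dimmest clusters left out before the fit (adjusted p = 0.0375) and without control replicate 3 (0.0422).

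UHRF1 and DNMT1 are S phase genes, and the first RefSeq window of each around an annotated start (250 bases before it and 50 after, GRCh38.p14) is printed here to show the letters of an E2F motif, the binding site of the factors that drive S phase genes. The motif was searched as TTTCCCGC, TTTCGCGC, TTTGGCGC or TTTGCCGC on both strands, and the match is in capitals. The windows are chr19:4909251-4909550, plus strand, for UHRF1 and chr19:10194904-10195203, minus strand, for DNMT1.
UHRF1: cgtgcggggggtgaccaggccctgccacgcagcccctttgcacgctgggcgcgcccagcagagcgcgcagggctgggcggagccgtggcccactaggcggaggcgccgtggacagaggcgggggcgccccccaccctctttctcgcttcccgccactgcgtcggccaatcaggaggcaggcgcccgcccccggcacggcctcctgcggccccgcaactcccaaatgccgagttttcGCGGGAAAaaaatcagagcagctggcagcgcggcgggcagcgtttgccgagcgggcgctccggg
DNMT1: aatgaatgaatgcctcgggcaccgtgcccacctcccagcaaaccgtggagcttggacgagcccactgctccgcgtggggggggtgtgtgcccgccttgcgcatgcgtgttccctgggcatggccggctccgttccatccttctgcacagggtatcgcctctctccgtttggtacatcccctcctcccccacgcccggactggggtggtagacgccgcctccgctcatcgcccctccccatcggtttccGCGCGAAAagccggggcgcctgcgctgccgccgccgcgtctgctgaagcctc
The UHRF1 match, GCGGGAAA, begins at position -14 from the annotated start and the DNMT1 match, GCGCGAAA, at position -2, both read on the opposite strand. A second UHRF1 window, which starts at 4909894, also held a match. Of all 35116 RefSeq windows, 3.31% held one, and of the 23 windows of the 10 genes 3 did, 2 of them for UHRF1. Among 44 windows of the interferon-stimulated genes listed below, 3 held one (6.82%). Those 23 windows belong to 9 of the genes, and windows of 1 gene can overlap. A match is a run of letters and says nothing of whether a factor binds there.

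Most S phase genes did not pass, and those that did were higher. Of 29 S phase genes on the array, out of a list of 30, 12 were higher and 0 lower with shLSD1 #1, and 11 were higher and 0 lower with shLSD1 #2 (limma; 1 and 0 were lower at an unadjusted p under 0.05), beside 7.85% and 6.56% of all clusters called higher. The list had a median change of 0.19 and 0.28, and its mean signal was 10.68 to 10.80 on control arrays, 10.98 to 11.12 with shLSD1 #1 and 11.04 to 11.11 with shLSD1 #2. PRIM1, the primase subunit, changed by 1.22 and 1.29, GMNN, the licensing inhibitor geminin, by 0.95 and 0.91, and E2F1 itself by 0.80 and 0.87. CHAF1A, a histone chaperone of the replication fork, changed by 1.14 and 1.00 (control replicate 2 was not above the negative controls) and MCM4, a subunit of the replicative helicase, by 0.76 and 0.79. With the block, 1 S phase gene (PRIM1) stayed past the threshold for shLSD1 #1 and 9 passed for shLSD1 #2. The part of these genes in the rise of UHRF1 and DNMT1 was not tested.

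The de novo methyltransferases were not above the negative controls. DNMT3A was between 6.04 and 6.52 on the control arrays, 6.30 and 6.45 with shLSD1 #1, and 6.15 and 6.49 with shLSD1 #2. DNMT3B was between 5.56 and 5.97 on the control arrays, 5.61 and 6.02 with shLSD1 #1, and 5.69 and 5.99 with shLSD1 #2. Neither gene exceeded the negative controls on any array, and for both the 3 groups overlapped. No fold is given for either gene. By limma their adjusted p was 0.788 and 0.967 for DNMT3A and 0.965 and 0.779 for DNMT3B. With the block the fitted change was 0.30 and 0.09 for DNMT3A and 0.02 and 0.09 for DNMT3B (adjusted p from 0.677 to 0.986).

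Of the TET dioxygenases, which oxidise methylated cytosine, only TET2 was measured above the negative controls. Its signals were 8.30, 8.26 and 8.44 on the control arrays. They were 7.35, 8.15 and 7.74 with shLSD1 #1 and 7.85, 7.59 and 8.15 with shLSD1 #2. Every hairpin array lay below every control array, but the hairpin arrays spread over more than the gap to the controls. The log2 change was -0.59 ± 0.21 with shLSD1 #1 (SE, n = 3, 95% interval -1.06 to -0.12, limma adjusted p = 0.0920) and -0.47 ± 0.21 with shLSD1 #2 (adjusted p = 0.193), so TET2 passed with neither hairpin. With shLSD1 #1 it passed with a trended robust prior (adjusted p = 0.0460) and without shLSD1 #1 replicate 5 (-0.79, adjusted p = 0.0297), and with the block its change was -0.17 and -0.33.

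TET1 and TET3 were below the negative controls on all 9 arrays. TET1 ranged from 3.49 to 4.13 on control arrays and from 3.78 to 4.57 over the hairpin arrays, with adjusted p = 0.230 and 0.383 by limma. TET3 had 5.34, 5.45 and 5.28 on control arrays, 5.14, 5.59 and 5.54 with shLSD1 #1 and 4.82, 4.90 and 5.25 with shLSD1 #2. The shLSD1 #2 arrays thus lay under the control arrays (adjusted p = 0.187) and the shLSD1 #1 arrays did not (adjusted p = 0.823). With the block the fitted change was 0.92 and 0.52 for TET1 and 0.20 and -0.32 for TET3 (adjusted p from 0.265 to 0.829).

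Of the retroelement silencing pair, TRIM28 passed with both hairpins and SETDB1 with neither. TRIM28, the scaffold that KRAB zinc finger proteins recruit, had 12.77, 12.76 and 12.73 on the control arrays. It had 13.11, 13.06 and 13.29 with shLSD1 #1 and 13.26, 13.05 and 13.18 with shLSD1 #2, and all hairpin arrays were above all control arrays. TRIM28 rose by 0.40 ± 0.11 with shLSD1 #1, or 1.32-fold (SE, n = 3, limma adjusted p = 0.0385), and by 0.41 ± 0.11 with shLSD1 #2, or 1.33-fold (adjusted p = 0.0406). With the block the changes were 0.56 ± 0.20 and 0.46 ± 0.12 (adjusted p = 0.229 and 0.0547). Leaving out any 1 control array, shLSD1 #1 replicate 4 or 6, or shLSD1 #2 replicate 7 or 9 ended the shLSD1 #1 call (adjusted p from 0.0517 to 0.122), and leaving out any 1 control array, shLSD1 #1 replicate 4 or any 1 shLSD1 #2 array ended the shLSD1 #2 call (0.0547 to 0.131). Of these, leaving out shLSD1 #2 replicate 8 gave the same shLSD1 #2 values as the block. Leaving out an array of the other hairpin did not alter the change itself, only its SE and adjusted p. Fitting only the groups compared ended both calls (adjusted p = 0.0637 and 0.0567), and cyclic loess ended that of shLSD1 #2 (0.0552).

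SETDB1, the methyltransferase that TRIM28 recruits, had 8.40, 8.14 and 8.12 on the control arrays. It had 7.98, 8.02 and 7.87 with shLSD1 #1 and 8.10, 7.89 and 7.99 with shLSD1 #2. No hairpin array overlapped the control arrays, though shLSD1 #2 replicate 7 came close to the lower ones, and the hairpin groups overlapped each other. The log2 change was -0.26 ± 0.12 (95% interval -0.53 to 0.01, limma adjusted p = 0.189, n = 3) and -0.22 ± 0.12 (-0.50 to 0.05, adjusted p = 0.293), so SETDB1 passed with neither hairpin. With the block its change was -0.11 and -0.17 (adjusted p = 0.884 and 0.539).

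**Figure D2:**
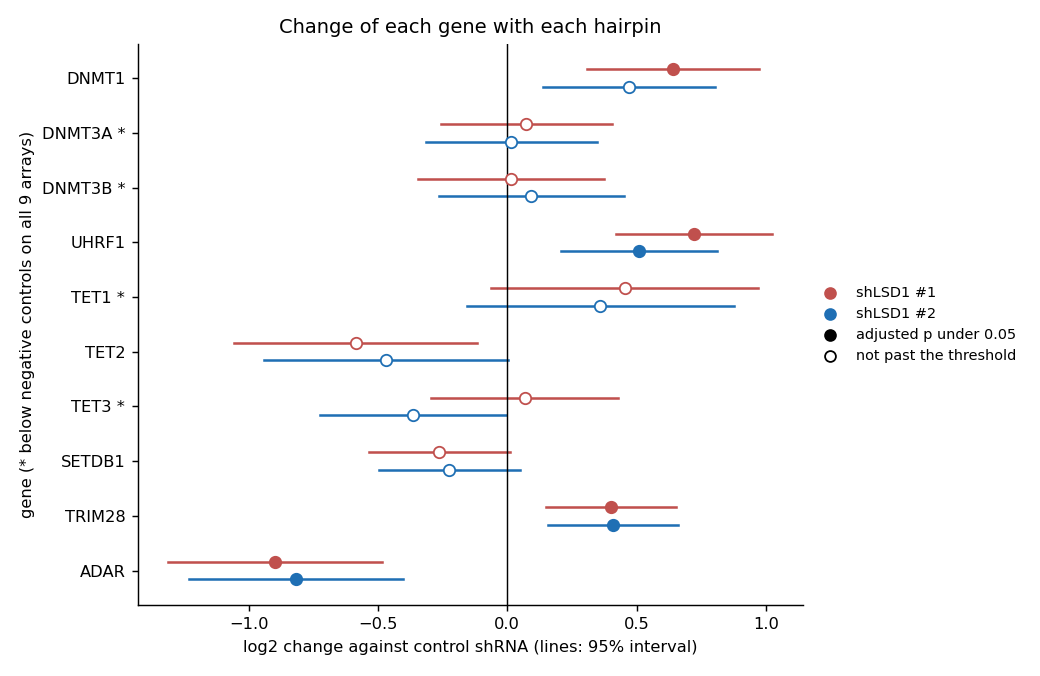
Log2 change of each gene against control shRNA with shLSD1 #1 (red) and shLSD1 #2 (blue), with 95% intervals from limma; filled points passed the adjusted threshold and an asterisk marks genes under the negative controls throughout. ADAR lay at -0.90 and -0.82, UHRF1 at 0.72 and 0.51 and TRIM28 at 0.40 and 0.41, and the fitted value of DNMT1 depends on control signals below the negative controls.

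ADAR had the largest fitted change of the 10 genes with each hairpin. Its signals were 11.04, 11.03 and 11.10 on the control arrays. They were 10.01, 10.52 and 9.95 with shLSD1 #1 and 10.00, 10.18 and 10.55 with shLSD1 #2. No hairpin array overlapped the controls, and shLSD1 #1 replicate 5 and shLSD1 #2 replicate 9 came nearest. ADAR fell by 0.90 ± 0.18 with shLSD1 #1, a 1.86-fold lower signal (SE, n = 3, limma adjusted p = 0.00948), and by 0.82 ± 0.18 with shLSD1 #2, 1.76-fold lower (adjusted p = 0.0172). Only 2.77% and 3.07% of clusters had a change that low. The cluster is annotated with 5 RefSeq transcripts, among them the long interferon-inducible form and the short constitutive form, which this value does not separate.

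With the hybridization class as a block the ADAR change was -0.80 ± 0.35 and -0.78 ± 0.22 and passed with neither hairpin (adjusted p = 0.330 and 0.0606). Within the arrays of high hybridization signal, the 3 control arrays and shLSD1 #2 replicates 7 and 9, the change was -0.78 ± 0.18 (adjusted p = 0.0638). The shLSD1 #2 change with the block comes from the same arrays, so this is not a separate check. The shLSD1 #2 call also ended without control replicate 1, 2 or 3 or without shLSD1 #2 replicate 7 (limma adjusted p from 0.0502 to 0.0657). Leaving out shLSD1 #2 replicate 8 gave the same shLSD1 #2 values as the block. The shLSD1 #1 call held without each of the 9 arrays in turn.

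Beside ADAR, 38 of a list of 40 interferon-stimulated genes were on the array. With shLSD1 #1, 37 were lower and 0 higher, and with shLSD1 #2 38 were lower and 0 higher (limma, where 0 were higher at an unadjusted p under 0.05 with either). Of all clusters, 7.94% and 6.63% were called lower. The gene that missed the threshold with shLSD1 #1 was IFITM3 (-0.32, adjusted p = 0.059, named after its value was seen). The median change was -2.33 and -2.48, against -0.90 and -0.82 for ADAR. With the block 29 and 36 of the 38 were lower. Their mean signal was 12.25, 12.25 and 12.29 on control arrays, 9.64, 9.67 and 9.60 with shLSD1 #1 and 9.40, 9.39 and 9.52 with shLSD1 #2. Replicates 5 and 9 were the highest of their groups for this mean, as they were for ADAR. MX1, an antiviral GTPase, changed by -6.23 ± 0.14 and -6.35 ± 0.14. OAS1, OAS2, XAF1 and IFI44L, also interferon-induced, were below the negative controls on all hairpin arrays, and OAS1 was at least 59.6-fold and 59.8-fold lower. That the interferon-stimulated genes fell is a result of these data that was already known when ADAR was chosen.

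Replicates 5 and 9 stood high for more than ADAR. Replicate 5 was the highest shLSD1 #1 array for 6 of the 10 genes (DNMT3A, DNMT3B, TET2, TET3, SETDB1 and ADAR), and replicate 9 the highest shLSD1 #2 array for 7 (DNMT1, DNMT3A, DNMT3B, TET1, TET2, TET3 and ADAR). UHRF1 and TRIM28 were highest on replicates 6 and 7 instead. DNMT3A, DNMT3B, TET1 and TET3 were below the negative controls on every array, so their order says little. Over all clusters, replicates 5 and 9 had the largest root mean square deviation from their group means, 0.225 and 0.229. The other arrays had 0.199 to 0.221. How often each array was highest over all clusters was not counted.

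To set ADAR beside a typical interferon-stimulated gene in sequence, the first RefSeq window of ADAR, chr1:154627948-154628247 on the minus strand, and that of ISG15, chr1:1013247-1013546 on the plus strand, are printed (GRCh38.p14). Capitals mark the core of the interferon-stimulated response element, searched on both strands as GAAA, any 2 bases, GAAA.
ADAR: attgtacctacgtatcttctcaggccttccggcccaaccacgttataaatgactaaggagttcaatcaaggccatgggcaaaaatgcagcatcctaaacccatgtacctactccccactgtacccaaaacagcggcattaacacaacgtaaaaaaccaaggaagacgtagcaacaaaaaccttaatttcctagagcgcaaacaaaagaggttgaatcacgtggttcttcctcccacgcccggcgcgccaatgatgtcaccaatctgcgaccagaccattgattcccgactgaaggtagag
ISG15: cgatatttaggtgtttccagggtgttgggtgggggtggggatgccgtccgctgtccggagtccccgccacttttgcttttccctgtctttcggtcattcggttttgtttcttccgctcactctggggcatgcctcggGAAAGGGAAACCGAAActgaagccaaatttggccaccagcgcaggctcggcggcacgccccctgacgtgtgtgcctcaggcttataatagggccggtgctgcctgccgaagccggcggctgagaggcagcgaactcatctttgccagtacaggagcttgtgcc
ISG15 held 2 overlapping matches, at positions -113 and -107 from the annotated start, and none of the 3 ADAR windows held one. The second ADAR window overlaps the printed one, and the third lies apart, at chr1:154608748-154609047. Which window serves the long interferon-inducible form was not determined, so the printed one may be that of the short constitutive form. Of the 44 windows of interferon-stimulated genes 26 did (59.1%), against 3.57% of all windows and 0 of the 23 windows of the 10 genes. The gamma-activated site, searched as TTCNNNGAA, was in 12 of the 44 windows (27.3%), in 7.66% of all windows and in 0 of the 23. That ADAR shows no match says only that these letters are not in these windows.

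The hairpins were not told apart by these genes. For shLSD1 #1 against shLSD1 #2, limma called 0 of the 10 genes and 0% of all clusters (1687 clusters and 1 of the 10 genes, TET3, had an unadjusted p under 0.05). The arrays of the hairpins overlapped for all 10 genes, where 13.3% of clusters did not overlap. Against control, 6 genes with shLSD1 #1 and 7 with shLSD1 #2 did not overlap, beside 35% and 32.1% of clusters. The 95% interval of the difference between hairpins was -0.49 to 0.33 for ADAR, -0.09 to 0.52 for UHRF1, -0.26 to 0.24 for TRIM28 and -0.16 to 0.50 for DNMT1, so differences within these ranges are not excluded by the fit.

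Genes whose profile over the 9 arrays was most like that of ADAR, by the root mean square difference after each gene's mean was subtracted, were ZNF772 (0.097), PGD (0.097) and QPRT (0.105), of which ZNF772 was below the negative controls on all arrays. For UHRF1 they were PASK (0.106), which was below the negative controls, CCNB2 (0.107) and KPNB1 (0.107). For TRIM28 they were AIFM1 (0.043), ANKRD13C (0.069) and FEN1 (0.070), the last of which is also on the S phase list.

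Most other genes of DNA methylation did not pass. Of 21 on the array from a list of 22, 2 were higher and 2 lower with shLSD1 #1 and 3 and 3 with shLSD1 #2, beside 15.8% and 13.2% of all clusters called, with medians of -0.079 and -0.0005. HELLS, a chromatin remodeller needed for full methylation, rose by 1.35 ± 0.13 and 0.79 ± 0.13. IDH2, a mitochondrial source of the TET cofactor 2-oxoglutarate, rose by 1.49 ± 0.11 and 1.24 ± 0.11, whereas its cytosolic relative IDH1 changed by -0.63 ± 0.10 and -0.40 ± 0.10. ZBTB38, a reader of methylated DNA, changed by -0.42 ± 0.10 and -0.59 ± 0.10. With the block, HELLS and IDH2 stayed past the threshold for both hairpins, ZBTB38 for shLSD1 #2 (adjusted p = 0.309 for shLSD1 #1), and IDH1 for neither (0.151 and 0.0770).

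Most other heterochromatin genes, partners of TRIM28 and SETDB1 among them, did not pass. Of 22 on the array from a list of 24, 4 were higher and 1 lower with shLSD1 #1, and 3 higher and 1 lower with shLSD1 #2, beside the same shares of all clusters. CBX1, an HP1 protein that binds the mark made by SETDB1, rose by 1.10 ± 0.12 and 0.73 ± 0.12, and SUV39H2, another methyltransferase for that mark, by 0.78 ± 0.17 and 0.88 ± 0.17. PPHLN1, a subunit of the HUSH silencing complex, rose by 0.44 ± 0.11 and 0.40 ± 0.11, and ASF1A, a histone chaperone, changed by -0.59 ± 0.12 and -0.61 ± 0.12. ATF7IP, the stabilising partner of SETDB1, had -0.05 and -0.14 (adjusted p = 0.852 and 0.598, named after its values were seen). With the block none of the 22 passed for shLSD1 #1 and CBX1, SUV39H2 and ASF1A passed for shLSD1 #2.

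Genes that sense or bind double-stranded RNA, the substrate of ADAR, were called on both sides. Of 14 on the array from a list of 15, 2 were higher and 5 lower with shLSD1 #1, beside 7.85% and 7.94% of all clusters. With shLSD1 #2, 2 were higher and 6 lower, beside 6.56% and 6.63%. Of the 14, 5 never exceeded the negative controls. IFIH1, the sensor that ADAR restrains, had changes of -2.51 ± 0.10 and -2.99 ± 0.10. RIGI, a sensor of RNA ends, had -2.34 ± 0.10 and -2.49 ± 0.10, and DHX58, their regulator, -2.53 ± 0.11 and -2.43 ± 0.11. These 3 also passed with the block for both hairpins. TLR3, lower, and ADARB1, a relative of ADAR, higher, passed the test at signals below the negative controls, and no fold is given. EIF2AK2, the kinase PKR that ADAR also restrains, changed by -0.62 ± 0.12 and -0.71 ± 0.12 and was named after its values were seen (with the block, adjusted p = 0.192 and 0.0126).

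Of 15 genes that restrict retroelements on the array, from a list of 17, 8 did not pass with shLSD1 #1 and 8 with shLSD1 #2. The others were 6 lower and 1 higher with shLSD1 #1 and 5 lower and 2 higher with shLSD1 #2, beside 7.94% and 6.63% of all clusters called lower. MOV10, a helicase that limits LINE-1, changed by -1.80 ± 0.14 and -1.77 ± 0.14, ZC3HAV1, a sensor of CpG-rich viral RNA, by -1.64 ± 0.11 and -1.84 ± 0.11, and SAMHD1, which depletes nucleotides, by -1.15 ± 0.13 and -1.43 ± 0.13. BST2, which tethers virions, changed by -1.997 ± 0.21 and -2.11 ± 0.21. APOBEC3G, a cytidine deaminase whose probes may read its close relatives, changed by -1.11 ± 0.17 and -1.26 ± 0.17. APOBEC3B, another deaminase of that family, named after its values were seen, changed by 0.73 ± 0.11 and 0.71 ± 0.11. With the block the shLSD1 #1 calls of BST2 (limma adjusted p = 0.0710), APOBEC3G (0.154) and APOBEC3B (0.0869) ended. Whether the falls in this list and in the double-stranded RNA list are separate from that of the interferon-stimulated list was not tested.

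Few genes that DNA methylation keeps silent could be measured. Of 19 germline genes on the array, from a list of 20, 18 never exceeded the negative controls. With shLSD1 #1, 1 was called higher, TDRD12, at signals below the negative controls, and with shLSD1 #2 limma called 0 (0 were lower at an unadjusted p under 0.05). Of all clusters, 15.8% and 13.2% were called. Of 9 genes derived from retroelements, from a list of 10, 2 were higher and 1 lower with shLSD1 #1 and 1 higher with shLSD1 #2, beside the same shares of all clusters. Of the 9, 7 were below the negative controls throughout, among them the syncytin genes ERVW-1 and ERVFRD-1. Only 2 exceeded them on any array, so at least 1 of the 3 genes called with shLSD1 #1 was below them throughout. PEG10, an imprinted gene derived from a retrotransposon, rose by 2.35 ± 0.15 and 2.24 ± 0.15 (limma adjusted p = 1.64e-05 and 1.97e-05, n = 3) and passed with the block as well. Transcripts of retroelements themselves were not analysed here.

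**Figure D3:**
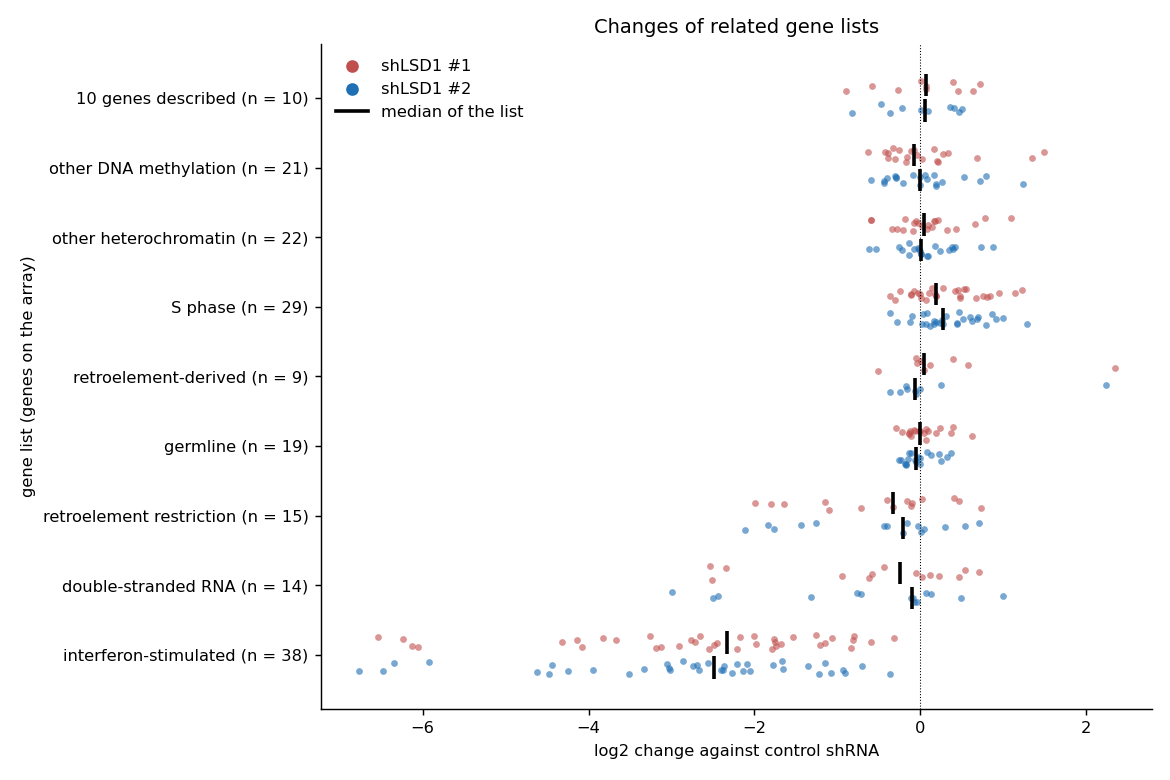
Log2 change against control shRNA of each gene in the 10 genes described and in 8 related lists, with shLSD1 #1 in red, shLSD1 #2 in blue and black bars at the medians of each list. The interferon-stimulated list had medians of -2.33 and -2.48 and the S phase list of 0.19 and 0.28, and the point at the right of the retroelement-derived list is PEG10.

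**Figure D4:**
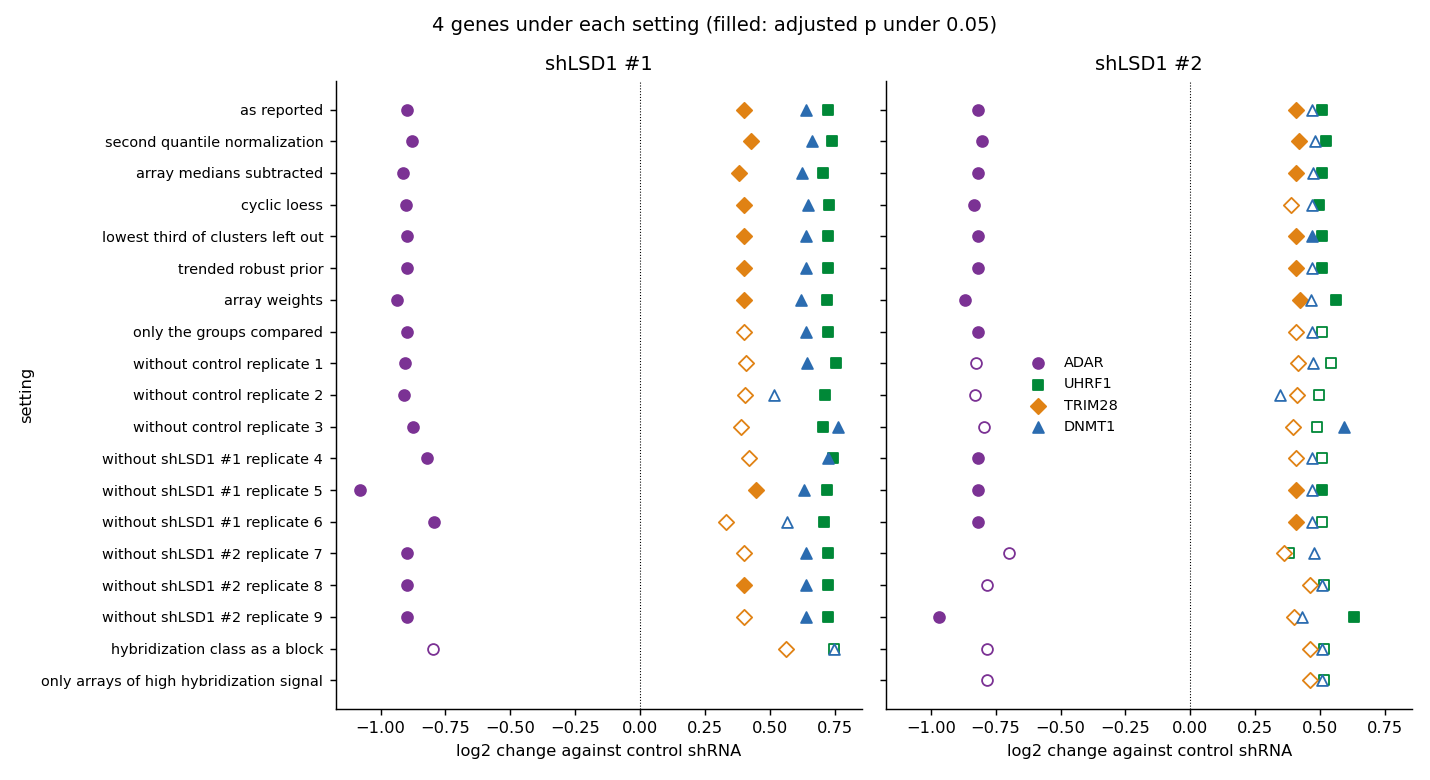
Log2 change of ADAR, UHRF1, TRIM28 and DNMT1 under the reported setting and each alternative, for shLSD1 #1 (left) and shLSD1 #2 (right); filled symbols passed the adjusted threshold of 0.05. ADAR stayed between -1.08 and -0.79 with shLSD1 #1 and between -0.97 and -0.70 with shLSD1 #2, and symbols are open in both panels with the hybridization class as a block.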

How the data were processed

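The deposited values are log2 signals per transcript cluster, made by the authors with RMA in Affymetrix Expression Console 1.4, per the submitters' processing notes; library files and options are not given there, and base 2 was taken as the RMA default. Of 24351 values per array, 2903 of control probes were set aside. All 21448 other clusters entered limma 3.58.1 (R 4.3.3; lmFit and eBayes, 9 arrays in 1 fit, two-sided p, Benjamini-Hochberg over all clusters), with no filter on signal. Genes were named by GEO's platform annotation (17709 clusters with 1 symbol, 3739 with none), and the brightest cluster stood for a gene. The 10 genes, the lists and most alternatives were chosen with earlier results of these data known. All 10 genes are named, with up to 5 genes per list that passed with both hairpins and had the largest mean change, and the 3 genes most like each of the 10 that passed with both. Precision is limited by the number of arrays. The fit was also run on simulated data with independent normal noise. These had no hybridization class effect, so that run does not test the influence of the class, and its outcome is not reported here. A group below the negative controls on all its arrays was raised to their percentile for bounds. Plots used matplotlib 3.10.9. Alternatives were other normalizations, a filter, other priors, array weights, subsets of arrays and the hybridization class.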

Additional observations from a re-analysis of the deposited data

How the results depend on the processing

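No paired analysis was possible because the replicate numbers run from 1 to 9 and no number is shared between groups. With the hybridization class as a block, 399 clusters and 0 of the 10 genes passed for shLSD1 #1, and 1940 clusters and 0 of the 10 for shLSD1 #2. For shLSD1 #2 this is the same result as without shLSD1 #2 replicate 8. With only the arrays of high hybridization signal, 1450 clusters and 0 of the 10 genes passed for shLSD1 #2 (4 of the 10 at an unadjusted p under 0.05). The shLSD1 #2 changes there equal those with the block, so this is not a separate check. For shLSD1 #1 there is no such array. With only the groups compared, 1 of the 10 genes passed for shLSD1 #2. A trended robust prior called 42 clusters between the hairpins and none of the 10 genes. Leaving out each array in turn, the clusters called were 2375 to 3275 for shLSD1 #1 and 1918 to 2710 for shLSD1 #2, and of the 10 genes 2 to 5 and 0 to 3; these subsets have fewer arrays. The lowest count of 0 came without control replicate 1 or 2 or shLSD1 #2 replicate 7 or 8. The signs of ADAR, UHRF1, TRIM28, DNMT1, TET1, TET2 and SETDB1 held under every alternative that gave a value. Signs turned for genes below the negative controls, at values near 0. DNMT3B with shLSD1 #1 had -0.052 with a second quantile normalization, -0.0032 with array medians subtracted, -0.023 with cyclic loess, -0.017 with array weights, and -0.12 to 0.13 over the arrays left out in turn. With shLSD1 #2 it had -0.00077 to 0.21 over the arrays left out. DNMT3A with shLSD1 #2 had -0.00068 with a second quantile normalization, -0.00079 with cyclic loess and -0.11 to 0.13 over the arrays left out, and with shLSD1 #1 -0.050 to 0.19. TET3 with shLSD1 #1 had -0.018 to 0.21 over the arrays left out. The cause of these moves was not tested.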
